A study of Mus musculus with 4 samples.

Results

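Retinoic acid is made from vitamin A and acts through nuclear receptors, and 10 genes of its pathway were examined in mouse CD8+ T cells that carried either a vector overexpressing the transcriptional repressor Hic1 or an empty vector. The genes were picked by name, as 4 receptors (Rara, Rarg, Rxra and Rxrb), 2 retinoid enzymes (Dhrs3 and Rdh10) and 4 genes reported to respond to retinoic acid (Ncoa7, Tgm2, Cd38 and Gpr15). All 10 were found among the 55401 genes of the count table. Of these, 9 had enough reads to be tested, and with the threshold for the adjusted p at 0.05 none of them passed. The test was the quasi-likelihood F test of edgeR, adjusted by Benjamini-Hochberg, and 213 of the 11676 tested genes passed it (1.82%), 0.719% higher and 1.1% lower with the Hic1 vector. At that share, no call among 9 genes is near the background.

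The cells were P14 CD8+ T cells, whose transgenic T cell receptor recognises lymphocytic choriomeningitis virus (LCMV). The Hic1 vector group (n = 2) received a vector that overexpresses Hic1, and the empty vector group (n = 2) a vector without an insert. All cells had been transduced and exposed to LCMV-Armstrong, and they were recovered from spleen on day 32 by the sample labels or day 7 by the series text, so the time is given both ways. No source used here gives the strain, age or sex of the mice or the promoter that drives Hic1. Smart-seq2 libraries were made from polyadenylated RNA of sorted cells, and the Hic1 vector libraries held 7501285 and 8839317 counts, against 4017346 and 3941364 for the empty vector. Hic1 had 314 and 161 counts with the Hic1 vector and 3 and 5 with the empty vector, as the labels require. Xist, the RNA of the inactive X chromosome, had 3590 and 3 counts in Hic1 vector replicates 1 and 2 and 1885 and 0 counts in empty vector replicates 1 and 2. The Y-linked Eif2s3y had 0 and 951 counts with the Hic1 vector and 0 and 396 counts with the empty vector, so sex-linked transcripts went with the replicate number. The 6 CD8 T cell markers, which include Cd3e, Cd8a and Trac, summed to 5370 and 6110 CPM with the Hic1 vector and 4937 and 5101 CPM with the empty vector. The labels do not say whether replicates came from separate animals. Xist and Eif2s3y differed between the 2 libraries of each group, so these 2 did not come from the same animal. Whether libraries of the same number shared an animal is not stated, and p-values measure the spread between these samples. Levels are CPM, which are read counts relative to library size after TMM scaling between libraries, and differences are log2 fold changes, Hic1 vector over empty vector, where each unit is a doubling.

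Cells convert retinol to retinal and retinal to retinoic acid, which binds retinoic acid receptors (RARs). RARs sit on DNA as pairs with retinoid X receptors (RXRs), hold corepressors when unbound and recruit coactivators when retinoic acid binds. In T cells, retinoic acid from gut dendritic cells is known for inducing gut homing receptors. Several genes of the pathway, such as Dhrs3, respond to retinoic acid and in turn limit it.

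Promoters of the members were searched for short sequences that RARs and HIC1 are known to bind. RefSeq promoter windows (GRCm38.p6), which run from 250 bases before to 50 after a start site, were found for 8 of the 10 genes, 17 windows in all, some of which overlap, and Rdh10 and Tgm2 had no entry. A search of both strands for RAR half-sites found AGGTCA in 3 of the 17 windows, beside 16.3% of all 32851 windows. The variant GGGTCA was found in 4 of the 17 and in 13.7% of all windows. The variant AGTTCA was found in 2 of the 17 and in 14% of all, and the variant GGTTCA likewise in 2 of the 17 and in 10.4% of all. Together, 7 of the 17 windows and 43.7% of all windows held at least 1 half-site. None of the 17 held 2 half-sites as a direct repeat with a spacer of 1, 2 or 5 bases, the arrangements RAR-RXR pairs are known to bind, and 0.222%, 0.268% and 0.0974% of all windows did. The letters GGGCANCC, taken here as the core of the consensus reported for human HIC1, were in 1 of the 17 windows and in 5.46% of all windows. Shown here are the Rara window with the most half-sites, the Rara window with the HIC1 core and the Rarg window with a half-site, because Rara and Rarg are the receptors that stood furthest apart between the vectors. Each runs 5′ to 3′ on the strand of its gene (plus for Rara, minus for Rarg), with half-sites and the HIC1 core in capitals.
Rara, chr11:98939461-98939760: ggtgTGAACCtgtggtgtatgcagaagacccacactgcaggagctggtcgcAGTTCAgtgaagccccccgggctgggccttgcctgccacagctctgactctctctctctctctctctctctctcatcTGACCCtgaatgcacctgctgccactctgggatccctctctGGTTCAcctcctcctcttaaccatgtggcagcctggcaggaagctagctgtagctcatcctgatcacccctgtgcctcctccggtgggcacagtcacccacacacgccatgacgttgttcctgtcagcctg
Rara, chr11:98964622-98964921: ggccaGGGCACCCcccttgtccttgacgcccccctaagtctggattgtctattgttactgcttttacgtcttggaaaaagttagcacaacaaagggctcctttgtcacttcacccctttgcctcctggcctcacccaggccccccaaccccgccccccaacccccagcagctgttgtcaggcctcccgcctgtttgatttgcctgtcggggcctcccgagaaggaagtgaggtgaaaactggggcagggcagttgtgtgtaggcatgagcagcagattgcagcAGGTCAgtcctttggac
Rarg, chr15:102257473-102257772: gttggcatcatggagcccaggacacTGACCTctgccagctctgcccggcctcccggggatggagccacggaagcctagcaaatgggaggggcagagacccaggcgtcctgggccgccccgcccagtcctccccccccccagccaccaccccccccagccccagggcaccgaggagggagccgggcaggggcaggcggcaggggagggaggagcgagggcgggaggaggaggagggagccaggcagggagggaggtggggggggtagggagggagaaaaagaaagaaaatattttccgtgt
In the first window the half-sites begin at bases -246, -199, -122 and -81 from the start site. In the second the HIC1 core begins at -245 and the half-site at 34, and in the Rarg window the half-site begins at -225. These are matches of letters, and nothing was measured here about binding.

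**Figure D1:**
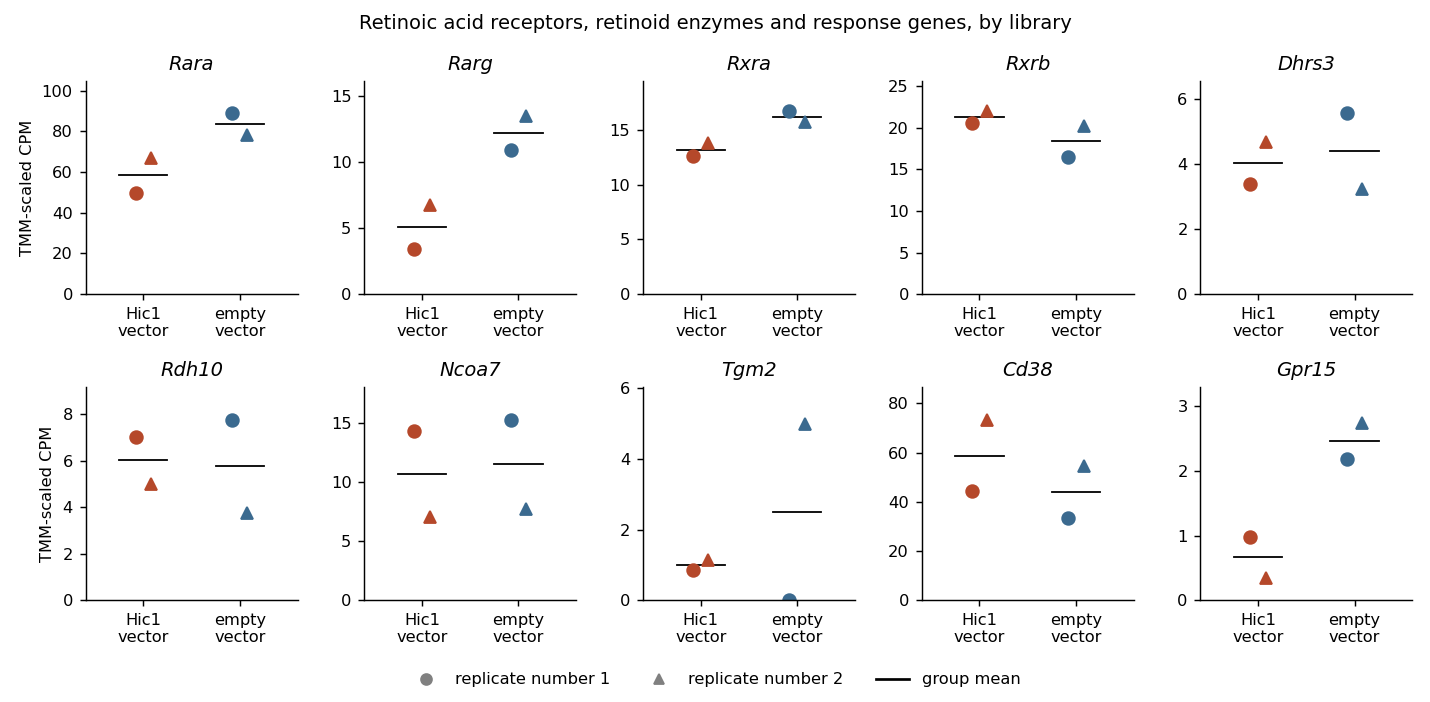
TMM-scaled CPM (y axes, each from 0) of the 10 genes in each library, with Hic1 vector left and empty vector right in each panel; circles are replicate number 1, triangles number 2 and bars group means. The libraries of the vectors stand apart for Rara, Rarg, Rxra, Rxrb and Gpr15, as they do for 51.4% of all tested genes. For Ncoa7, Rdh10, Cd38 and Tgm2, the last too low to test, the circles and triangles stand apart instead. Over all tested genes the replicate numbers stand apart for 28.4%.

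Rara, which encodes RAR alpha (ENSMUSG00000037992, chromosome 11, positions 98927818 to 98974942, plus strand, mm10), was at 49.8 and 67.1 CPM with the Hic1 vector and 89.1 and 78.2 CPM with the empty vector. Both Hic1 vector libraries lay below both empty vector libraries. The means were 58.5 ± 12.2 CPM with the Hic1 vector and 83.6 ± 7.7 CPM with the empty vector (SD, n = 2 each). The log2 fold change was -0.51 ± 0.19 (SE), a ratio of 0.701 with a 95% interval of 0.523 to 0.939 before any correction for the number of genes. It did not pass over all genes (adjusted p = 0.179), and the difference was -0.84 within replicate number 1 and -0.22 within number 2.

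Rarg, which encodes RAR gamma (ENSMUSG00000001288, chromosome 15, positions 102234938 to 102257517, minus strand), had 24 and 59 counts with the Hic1 vector, or 3.38 and 6.72 CPM, and 45 and 54 counts with the empty vector, or 10.9 and 13.5 CPM. The raw counts of the groups overlapped, and the CPM, which divide by the larger size of the Hic1 vector libraries, did not. The log2 fold change was -1.21 ± 0.42 (SE), a ratio of 0.433 with an interval of 0.231 to 0.813, with an adjusted p of 0.147. Between libraries numbered 1 the difference was -1.69 and between those numbered 2 it was -1.005. Neither RAR gene was called in any of 12 alternative analyses.

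Rxra, which encodes RXR alpha (ENSMUSG00000015846), was at 12.7 and 13.8 CPM with the Hic1 vector and 16.7 and 15.7 CPM with the empty vector, with no overlap. Its log2 fold change of -0.29 ± 0.30 (SE) did not pass (adjusted p = 0.649), and the interval of the ratio, 0.523 to 1.28, spans 1. Rxrb, which encodes RXR beta (ENSMUSG00000039656, chromosome 17, positions 34031812 to 34038399), was at 20.6 and 22.0 CPM with the Hic1 vector and 16.5 and 20.2 CPM with the empty vector. The groups were apart by less than their own spread, and they overlapped when libraries were scaled by their totals alone. The log2 fold change was 0.21 ± 0.28 (SE), with an interval of the ratio from 0.762 to 1.75 and an adjusted p of 0.736. Rarb, the remaining RAR gene, had 0 counts in every library, which allows up to 0.422 and 0.342 CPM in the Hic1 vector libraries and 0.728 and 0.75 CPM in those with the empty vector, and Rxrg, the remaining RXR gene, had 1 count in 1 library.

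The retinoid enzymes varied more between libraries of a group than between groups. Dhrs3, a reductase that turns retinal back into retinol (ENSMUSG00000066026, chromosome 4, positions 144892827 to 144928209), was at 3.38 and 4.67 CPM with the Hic1 vector and 5.58 and 3.25 CPM with the empty vector. The groups overlapped, and the difference was -0.72 within replicate number 1 and 0.52 within number 2. Its log2 fold change was -0.12 ± 0.51 (SE, adjusted p = 0.927), and the interval of the ratio, 0.427 to 1.98, includes differences near a doubling in either direction. Rdh10, which oxidises retinol to retinal (ENSMUSG00000025921, chromosome 1, positions 16105774 to 16133734), was at 7.04 and 5.01 CPM with the Hic1 vector and 7.77 and 3.75 CPM with the empty vector. These also overlapped, with a log2 fold change of 0.06 ± 0.47 (SE, adjusted p = 0.968) and an interval of the ratio from 0.507 to 2.13.

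Cd38 encodes an ectoenzyme that consumes NAD and is known to be induced by retinoic acid in human leukaemia cells. The gene (ENSMUSG00000029084, chromosome 5, positions 43868553 to 43912375) had 314 and 643 counts with the Hic1 vector and 137 and 219 counts with the empty vector. As levels these were 44.2 and 73.3 CPM with the Hic1 vector and 33.3 and 54.7 CPM with the empty vector. The ranges overlapped because both libraries numbered 2 were above their partners numbered 1, while within each number the Hic1 vector library was the higher, by 0.41 and 0.42 on the log2 scale. Cd38 did not pass between the vectors (0.42 ± 0.29, SE, adjusted p = 0.483), with an interval of the ratio from 0.847 to 2.11. That fit counts the difference between numbers as spread. With the number as a further factor in the edgeR test, the difference was 0.41 ± 0.17 (SE, adjusted p = 0.163) and did not pass either. B cells also express Cd38, and the 5 B cell markers summed to 41.4 and 16.2 CPM with the Hic1 vector and 18.2 and 4.25 CPM with the empty vector, most of it Cd79b, while Ms4a1 had at most 2 counts in a library. Within each number that sum was higher with the Hic1 vector, as Cd38 was. Within each group it was higher in the library numbered 1, where Cd38 was lower. The part of B cells in the Cd38 values was not tested.

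Ncoa7, a nuclear receptor coactivator (ENSMUSG00000039697, chromosome 10, positions 30628999 to 30803326), differed more between replicate numbers than between vectors. It was at 14.4 and 7.06 CPM with the Hic1 vector and 15.3 and 7.74 CPM with the empty vector, and in each group the library numbered 1 was about double the library numbered 2. The log2 fold change between vectors was -0.11 ± 0.43 (SE, adjusted p = 0.922), with an interval of the ratio from 0.476 to 1.80. Its exons share 78 bases with Hint3 on the same strand, and Hint3 had 132 and 192 counts with the Hic1 vector and 120 and 102 counts with the empty vector, so some reads of this stretch cannot be assigned.

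Gpr15, a chemoattractant receptor that guides T cells to the large intestine (ENSMUSG00000047293, chromosome 16, positions 58717433 to 58719070), had 7 and 3 counts with the Hic1 vector and 9 and 11 counts with the empty vector. Levels were 0.986 and 0.342 CPM with the Hic1 vector and 2.18 and 2.75 CPM with the empty vector, with no overlap. The log2 fold change was -1.51 ± 0.67 (SE) and the adjusted p was 0.244. Pooled over libraries, the ratio of rates was 0.256, with an exact 95% counting interval of 0.107 to 0.572. That interval treats reads as independent and leaves out the spread between libraries, so it is no test of the vector. The gene entered the test only through the empty vector group, since neither Hic1 vector library reached the minimum of 1.74 CPM. A negative log2 value and a pooled ratio below 1 were thus set by its selection. It also shares 204 exon bases with Cpox on the opposite strand, which had 35 and 26 counts with the Hic1 vector and 18 and 19 counts with the empty vector, and no source used here says whether the counting used strand.

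Tgm2, which encodes tissue transglutaminase, an enzyme that crosslinks proteins and a classical retinoic acid-induced gene of macrophages and leukaemia cells, had too few counts to test. The gene (ENSMUSG00000037820, chromosome 2, positions 158116402 to 158146436) had 6 and 10 counts with the Hic1 vector and 0 and 20 counts with the empty vector. The empty vector libraries thus held both the lowest and the highest value, and no difference could be read at this depth. Adgre1, a macrophage marker, had 0 and 0 counts with the Hic1 vector and 6 and 10 counts with the empty vector, Csf1r had 1 and 37 counts with the Hic1 vector and 7 and 21 counts with the empty vector, and the 6 macrophage and monocyte markers summed to 43.2 and 50.4 CPM with the Hic1 vector and 49.3 and 62.7 CPM with the empty vector. Lyz2 had 0 and 13 counts with the Hic1 vector and 0 and 0 with the empty vector, Mertk had at most 2 counts in a library, and Cd68 and Itgam made up most of the sum. The markers thus did not move together between the vectors or the replicate numbers, and their part in the Tgm2 counts was not tested. Tgm2 shares 370 exon bases with Rprd1b on the opposite strand, and Rprd1b had 362 and 438 counts with the Hic1 vector and 256 and 233 counts with the empty vector.

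Among the 9 tested genes, the libraries of the vectors did not overlap for 5, Rara, Rarg, Rxra and Gpr15 lower and Rxrb higher. This is 5 of 9 beside 51.4% of all tested genes, of which 26.5% were higher and 24.9% lower. At an unadjusted p below 0.05 there were 3 of 9, Rara, Rarg and Gpr15, beside 19.1% of all tested genes. The median log2 fold change was -0.12 over the 9 genes and 0.01 over all tested genes. These counts include Gpr15, whose selection fixed its sign. No gene of the 9 was called by DESeq2 or limma voom either, but DESeq2 gave Gpr15 no adjusted p and so could not call it.

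**Figure D2:**
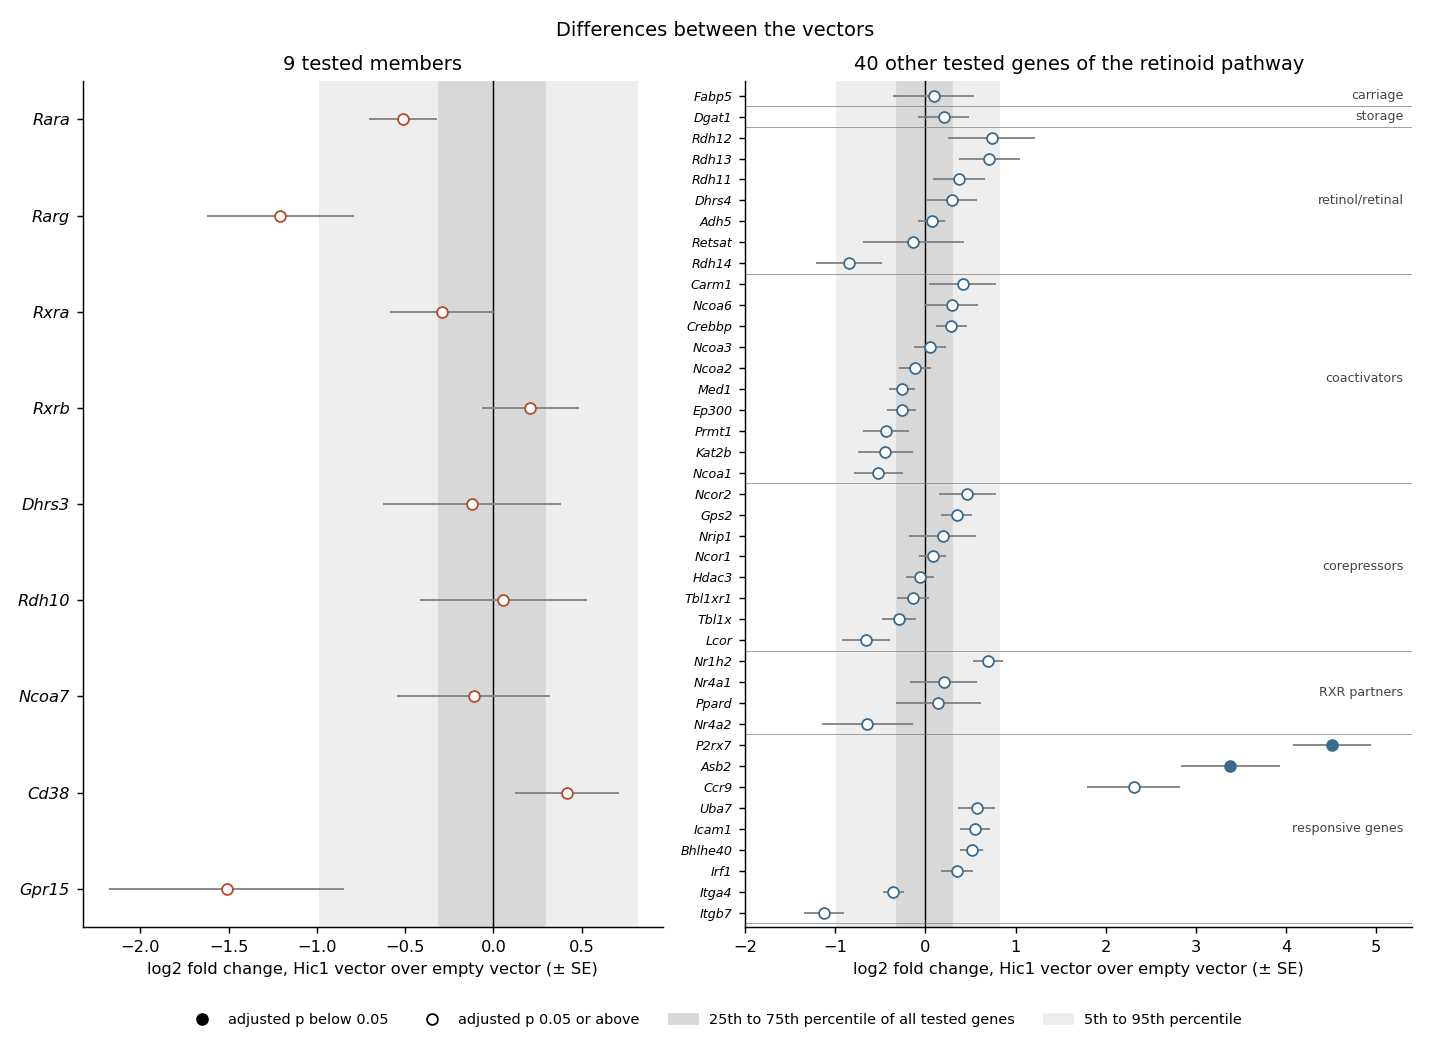
Log2 fold change, Hic1 vector over empty vector, with its standard error (x axes) for the 9 tested members on the left and 40 other tested retinoid pathway genes on the right, grouped by role; filled points passed an adjusted p of 0.05 and grey bands span the central part of all tested genes. All 9 members are open points, Rarg at -1.21 and Gpr15 at -1.51 lie left of the outer band, and P2rx7 and Asb2 are the filled points.

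Separately from the vector, Cd38, Ncoa7 and Rdh10 split by replicate number. In an edgeR fit with number and vector as factors, chosen after the data were seen, the difference of number 2 over number 1 was 0.72 ± 0.17 for Cd38 (log2, SE) and -0.97 ± 0.31 for Ncoa7. The difference of Rdh10 was -0.70 ± 0.42. None of these passed (adjusted p = 0.132 for Cd38, 0.271 for Ncoa7 and 0.608 for Rdh10), and 0.231% of all tested genes did. The libraries of the numbers did not overlap for these 3 of the 9 tested genes, which is near the share of 28.4% over all tested genes. Sex, the animal and any handling that went with the number cannot be told apart.

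**Figure D3:**
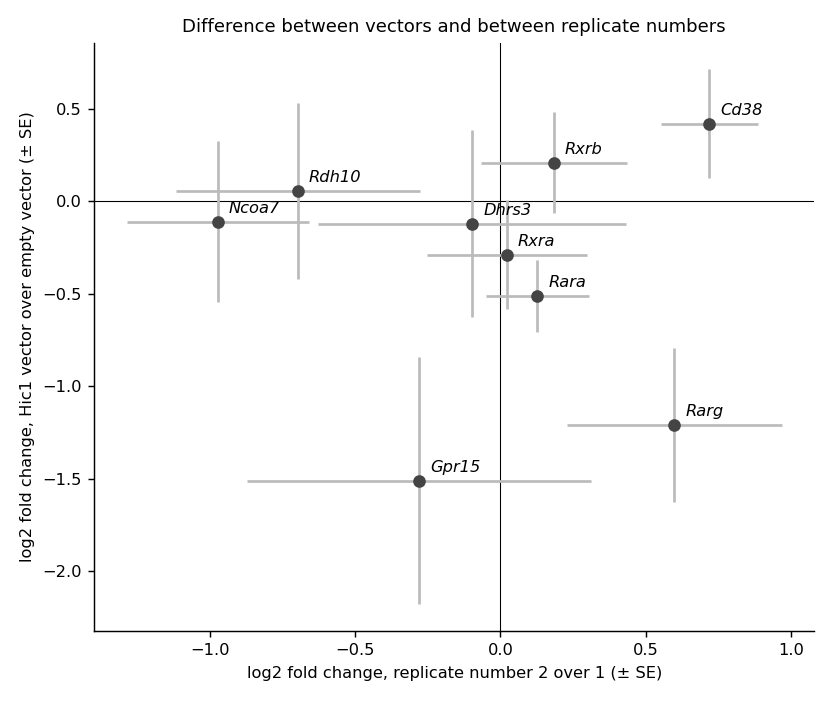
For the 9 tested genes, the log2 fold change of replicate number 2 over 1 (x axis) against that of Hic1 vector over empty vector (y axis), both from edgeR fits, with standard errors as bars. Rarg and Gpr15 lie lowest on the vector axis, and Ncoa7 and Cd38 lie furthest out, on opposite sides, on the number axis at -0.97 and 0.72.

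Per length, Rara and Cd38 RNA stood above the other members. On the scale of CPM per kilobase of exon, Cd38 averaged 15.1 ± 5.28 with the Hic1 vector and 11.3 ± 3.9 with the empty vector (SD, n = 2 each), and Rara averaged 13.4 ± 2.8 with the Hic1 vector and 19.2 ± 1.76 with the empty vector. Over all 4 libraries Rara (mean 16.3) and Cd38 (13.2) overlapped in range. Rxrb (4.99) lay below both and above Rxra (2.70), with no overlap between neighbours in either case. From Rxra downward, each member overlapped the next in the order Rxra, Rarg (2.03), Dhrs3 (1.44), Rdh10 (1.42), Ncoa7 (1.05), Gpr15 (0.955) and Tgm2 (0.379). On this scale Rarg was at 0.793 and 1.58 and Rxra at 2.32 and 2.52 in the Hic1 vector libraries, and in the empty vector libraries Rarg was at 2.56 and 3.17 and Rxra at 3.07 and 2.88. The exon length of Rxra comes from another version of its gene model, so its level per length is approximate.

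**Figure D4:**
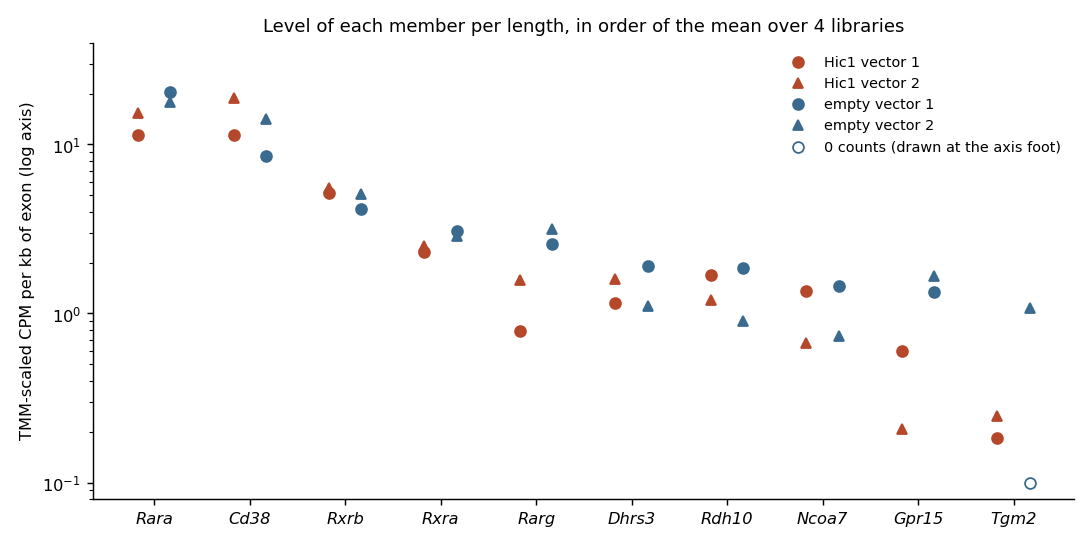
TMM-scaled CPM per kilobase of exon (log y axis) of the 10 genes, ordered by their mean over the 4 libraries, with Hic1 vector points left of empty vector points; the open point is a library with 0 counts of Tgm2. Rara and Cd38 lie above the others, and Tgm2 shows the widest scatter in the empty vector.

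The rest of the pathway was read from a list of 78 genes, of which 40 had enough reads to test. Of the 40, 2 were called, P2rx7 and Asb2, both higher, none was called lower and 38 did not pass, beside 1.82% called among all tested genes. The median log2 fold change of the 40 was 0.17. Both called genes were already known to differ in these data when the list was written, so they are not independent evidence of a direction. Of the empty vector libraries, 0 reached the minimum level for P2rx7 and 1 for Asb2, so selection by level also favoured a positive value for both.

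Genes that make, carry or break down retinoic acid mostly had few or no counts. All 4 enzymes of retinoic acid synthesis (Aldh1a1, Aldh1a2, Aldh1a3 and Aldh8a1) had at most 11 counts in a library, and the 3 Cyp26 enzymes that break retinoic acid down had at most 4, so none could be tested. Of 10 genes of retinol uptake and carriage, 6 had 0 counts in every library, among them Crabp1 and Crabp2, and Fabp5, a fatty acid carrier that also binds retinoic acid, alone was tested (5.14 ± 0.499 CPM with the Hic1 vector and 4.80 ± 0.425 CPM with the empty vector). Of 2 storage genes, the acyltransferase Dgat1 was tested, at 38.8 ± 7.03 CPM with the Hic1 vector and 33.6 ± 13.2 CPM with the empty vector, and did not pass. Of 16 genes of retinol and retinal interconversion 7 were tested and none passed. Rdh14 was at 6.66 ± 1.86 CPM with the Hic1 vector and 12.3 ± 0.794 CPM with the empty vector (adjusted p = 0.234), and Rdh13 at 17.3 ± 2.41 CPM with the Hic1 vector and 10.5 ± 3.87 CPM with the empty vector (adjusted p = 0.286).

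The listed cofactors of the receptors were all measured and none passed. All 10 coactivators were tested, with a median log2 fold change of -0.19, and the lowest p belonged to Ncoa1, a p160 coactivator, at 19.1 ± 4.36 CPM with the Hic1 vector and 27.7 ± 2.74 CPM with the empty vector. Med1, the Mediator subunit that contacts nuclear receptors, was at 116.6 ± 0.436 CPM with the Hic1 vector and 139.9 ± 0.414 CPM with the empty vector (adjusted p = 0.362). All 8 corepressor genes were tested, with a median of 0.01. Lcor, a ligand-dependent corepressor, was at 31 ± 4.79 CPM with the Hic1 vector and 48.9 ± 17.3 CPM with the empty vector (adjusted p = 0.207), and Gps2, a subunit of the NCoR complex, was at 75.2 ± 0.965 CPM with the Hic1 vector and 59.1 ± 1.9 CPM with the empty vector (adjusted p = 0.303).

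Of 11 other receptors that pair with RXRs or are classed with them, 4 were tested and none passed. Nr1h2, which encodes the oxysterol receptor LXR beta, had 872 and 1320 counts with the Hic1 vector and 328 and 356 counts with the empty vector. At 136.6 ± 19.5 CPM with the Hic1 vector and 84.3 ± 6.59 CPM with the empty vector its groups did not overlap, and its log2 fold change of 0.70 ± 0.16 (SE) missed the threshold (adjusted p = 0.0563) but passed in 4 of 12 alternatives. Nr4a2, an orphan receptor induced by T cell stimulation, was at 3.5 ± 0.432 CPM with the Hic1 vector and 5.64 ± 2.67 CPM with the empty vector.

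Of 12 genes reported to respond to retinoic acid in lymphoid or myeloid cells, 9 had enough reads, of which 2 were called, both higher, and 7 did not pass. At an unadjusted p below 0.05 there were 8 of the 9, with 6 higher and 2 lower, beside 19.1% of all tested genes, and this list too was written with results of these data known. P2rx7, an ATP-gated channel, was at 45.5 and 25.3 CPM with the Hic1 vector and 1.46 and 0.999 CPM with the empty vector (log2 4.51 ± 0.44, SE, adjusted p = 0.00325). It entered the test only through the Hic1 vector group, since neither empty vector library reached the minimum level, so a positive value was set by its selection. Asb2, a ubiquitin ligase subunit identified as induced by retinoic acid in leukaemia cells, was at 23.9 and 10.7 CPM with the Hic1 vector and 0.728 and 2.00 CPM with the empty vector (3.38 ± 0.55, adjusted p = 0.0204). It had 3 and 8 counts with the empty vector, and only 1 of those libraries reached the minimum level. The empty vector group alone would not have brought Asb2 into the test, so its selection favoured a positive value. Without empty vector replicate 1 Asb2 was not called (2.93, adjusted p = 0.176), nor was it by limma voom (adjusted p = 0.0851). Of the gut homing genes of the list, Itgb7 and Ccr9 came close to the threshold and Itga4 stood further off. Bhlhe40 (adjusted p = 0.0658, called in 4 of 12 alternatives) and Icam1 (adjusted p = 0.107, called in 2 of 12) of the same list, both higher with the Hic1 vector, stood nearer to it than Itga4. These genes are named here after their values were seen. Itgb7, the integrin chain that pairs with alpha 4 for entry into the gut, was at 791 and 465 CPM with the Hic1 vector and 1383 and 1363 CPM with the empty vector, with no overlap. Its log2 fold change was -1.13 ± 0.22 (SE, adjusted p = 0.0544), and it was called in 7 of 12 alternatives. Ccr9, the chemokine receptor for the small intestine, was at 21.8 and 13.7 CPM with the Hic1 vector and 5.34 and 1.25 CPM with the empty vector. Ccr9 had 22 and 5 counts with the empty vector, where only 1 library reached the minimum level, so its selection likewise favoured a positive value. Its log2 fold change was 2.31 ± 0.52 (SE, adjusted p = 0.0544), the opposite sign to Itgb7, and it was likewise called in 7 of 12 alternatives. Itga4, the alpha 4 chain, was at 911 and 923 CPM with the Hic1 vector and 1220 and 1131 CPM with the empty vector (adjusted p = 0.125), and it was called in 1 of 12. Of the genes of this kind among the 10 members, Cd38, Ncoa7 and Gpr15 had the log2 values given above, 0.42, -0.11 and -1.51, and none of the 3 was called.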

How the data were processed

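The authors deposited raw read counts per gene for 4 libraries, whole numbers that were used unchanged. The tools named by the submitters' processing notes are STAR 2.5.2b, Trimmomatic 0.38, DESeq2 1.3.2 and featureCounts 1.5.3, on the build mm10, without saying what each did; no source used here gives the annotation release or strand setting. Per the labels' protocols, 5000 cells were sorted and 1000 resorted for each library. The deposited normalized table was not used.

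Genes were kept by filterByExpr (minimum count 10, minimum total 15), scaled by TMM and tested with group as the single factor by the quasi-likelihood F test of edgeR 4.0.16 (robust, prior count 2; R 4.3.3), adjusted by Benjamini-Hochberg over all 11676 genes tested. Standard errors are the log2 fold change over the square root of F, and intervals use the fit's degrees of freedom. The alternatives were 2 other scalings, no filter, DESeq2 1.42.0, voom in limma 3.58.1, a replicate block, omission of each library, and, chosen after the data were seen, a GC correction (loess, span 0.3) with and without the block. Scripts were tested on simulated data. Exon lengths and coordinates come from GENCODE M21, where 98.1% of gene identifiers had the same version; coordinates are given only for those. Promoter sequences are RefSeq's. Figures used matplotlib 3.10.9.

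The 10 members, the other 78 pathway genes in 10 roles, the cell type markers and the tests were chosen with earlier results of these data known. The naming rule covers all members, Hic1, every called pathway gene and the 2 of lowest p in each role; genes too low to test are named without a direction. Library totals were 3941364 to 8839317 counts. Amplified reads carry no molecular identifiers and do not count molecules one by one, so the intervals on counts and the limits set by a count of 0 (3 counts) cover counting error only.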

Additional observations from a re-analysis of the deposited data

How the results depend on the processing

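None of the 9 tested members was called under any of 12 alternatives, and 99 of 108 values kept their direction, which is given in advance where the groups do not overlap and a library is left out. The 9 that reversed belonged to Dhrs3, Rdh10 and Ncoa7. Dhrs3 turned to 0.0798 without Hic1 vector replicate 1 and 0.29 without empty vector replicate 1. Rdh10 turned to -0.0208 with library totals alone, to -0.18 without Hic1 vector replicate 1 and to -0.37 without empty vector replicate 2. Ncoa7 turned to 0.31 without Hic1 vector replicate 2, 0.45 without empty vector replicate 1, 0.0887 with GC correction and 0.0906 with GC correction and the replicate block. With a library left out, Dhrs3 ranged from -0.451 to 0.292, Rdh10 from -0.368 to 0.642 and Ncoa7 from -0.674 to 0.447. The lowest adjusted p was 0.0659 for Rara, 0.066 for Rarg and 0.0805 for Cd38. All of these came from the edgeR fit with GC correction and the replicate block, which was chosen after the data were seen. Rara ranged from -0.74 to -0.31, Rarg from -1.73 to -0.82, Cd38 from 0.01 to 0.81 and Gpr15 from -2.04 to -1.05, by edgeR, DESeq2 or limma.

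Over all genes 213 were called, 39.4% of them higher. Library totals alone called 321 (21.8% higher), no filter 819 (56.3% higher), DESeq2 412, the replicate block 794, GC correction 130 and GC correction with the replicate block 459. Leaving out a library gave 8 to 318 calls, the 8 without empty vector replicate 1, and the cause was not tested. Of the 78 pathway genes, 2 were called, against 4 with library totals alone, 8 with no filter, 5 with DESeq2, 1 with limma voom, 9 with the replicate block, 4 with GC correction, 5 with GC correction and the block, and 1 to 4 with a library left out. The labels do not say that a number marks a shared animal; between numbers 1 and 2 the differences in both groups correlated across genes (r = 0.239, 2 pairs, genes not independent). Members with few counts, Gpr15 and Tgm2 above all, are limited by depth.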
